A study of Homo sapiens with 6 samples.

Results

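The 10 genes described here are the 3 members of the GADD45 family (GADD45A, GADD45B, GADD45G), 6 inhibitors of cyclin-dependent kinases (CDKN1A, CDKN1B, CDKN1C, CDKN2A, CDKN2B, CDKN2C) and MDM2. They were chosen by gene symbol, from 34690 symbols measured on each array. All 10 were found, each on 1 row. Expression was measured on 6 Illumina BeadChip arrays of RNA from SNU761, an established line of hepatocellular carcinoma cells. Cells had received sorafenib for 24 h on 3 arrays and the vehicle DMSO alone for 24 h on the other 3, numbered 1 to 3 in each group. The design text names further cell lines, but all 6 arrays are labelled SNU761. The sorafenib dose is written as 3 mM, a unit that is uncertain because it lies far above doses usual in culture. Sorafenib inhibits RAF kinases and several receptor tyrosine kinases. Arrays of both groups sharing a number are called a pair, and a pair difference is the sorafenib value minus the control value in normalized log2 signal.

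GADD45 proteins are small stress-induced proteins that bind partner kinases, cyclin B complexes and PCNA, and are known for slowing the cell cycle and for activating the p38 and JNK stress kinases through MAP3K4. The CIP/KIP inhibitors p21 (CDKN1A), p27 (CDKN1B) and p57 (CDKN1C) bind a broad range of cyclin and kinase complexes, while the INK4 inhibitors p16 (from CDKN2A), p15 (CDKN2B) and p18 (CDKN2C) bind the kinases CDK4 and CDK6. MDM2 is a ubiquitin ligase.

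The arrays numbered 3 stood apart from the other 4 in both groups. Over 10 markers of the hepatocyte lineage the mean log2 signal was 13.13, 12.46 and 8.63 on sorafenib arrays 1, 2 and 3, and 13.20, 12.95 and 8.84 on control arrays 1, 2 and 3. All 10 markers were detected on arrays 1 and 2 of both groups, against 7 on either array numbered 3. Over 8 fibroblast and stellate cell markers the mean was 6.15, 5.92 and 7.78 with sorafenib and 6.16, 6.28 and 8.50 in controls. Over 9 blood cell markers the mean was 6.37 to 7.31 per sorafenib array and 6.77 to 7.27 per control array. Of these 9, 3 to 4 were detected per sorafenib array and 4 to 5 per control array. LCP1 and LYZ were detected on all 6 arrays, RAC2 was detected on both arrays numbered 3 alone, and PTPRC, CD3E and CD53 on no array. Median signals were 134 to 168 intensity units on the sorafenib arrays and 139 to 171 on the control arrays, and 13195 to 15227 symbols per array were detected, meaning a detection p under 0.05. The number of arrays limits the precision. Results are therefore given by pair, and with and without the arrays numbered 3.

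GADD45A and GADD45B were higher with sorafenib in all 3 pairs, and so was CDKN1B, whereas CDKN2B was lower in all 3. GADD45G was detected in pair 3 alone and was higher with sorafenib there. CDKN1A was lower with sorafenib in pairs 1 and 2 and higher in pair 3. CDKN1C, CDKN2A and MDM2 had no common direction over the pairs, and CDKN2C lay near background. Of the 10 members, 5 were detected on at least 3 arrays and so were tested: GADD45A, GADD45B, CDKN1B, CDKN1C and CDKN2B. In limma's fit on the group alone, with Benjamini-Hochberg adjustment over 14641 tested symbols and a threshold of 0.05, 0 of these 5 passed, as did 0 of all symbols (0%); 1 of the 5, GADD45A, had an unadjusted p under 0.05, against 2.12% of all tested symbols. With the replicate number as a block limma again called 0 (0%), and 4 of the 5 had an unadjusted p under 0.05, against 19% of all. An alternative that adds a variance trend and robust estimation to the block, named the paired trended fit here, called 1 of the 5, GADD45A. It called 143 symbols in all (0.977%), of which 76 were higher (0.519%) and 67 lower (0.458%). Below, a gene is said to have risen or fallen only where it passed that alternative. Bulk RNA does not show whether a lower level means fewer cells with the transcript or less of it per cell.

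**Figure D1:**
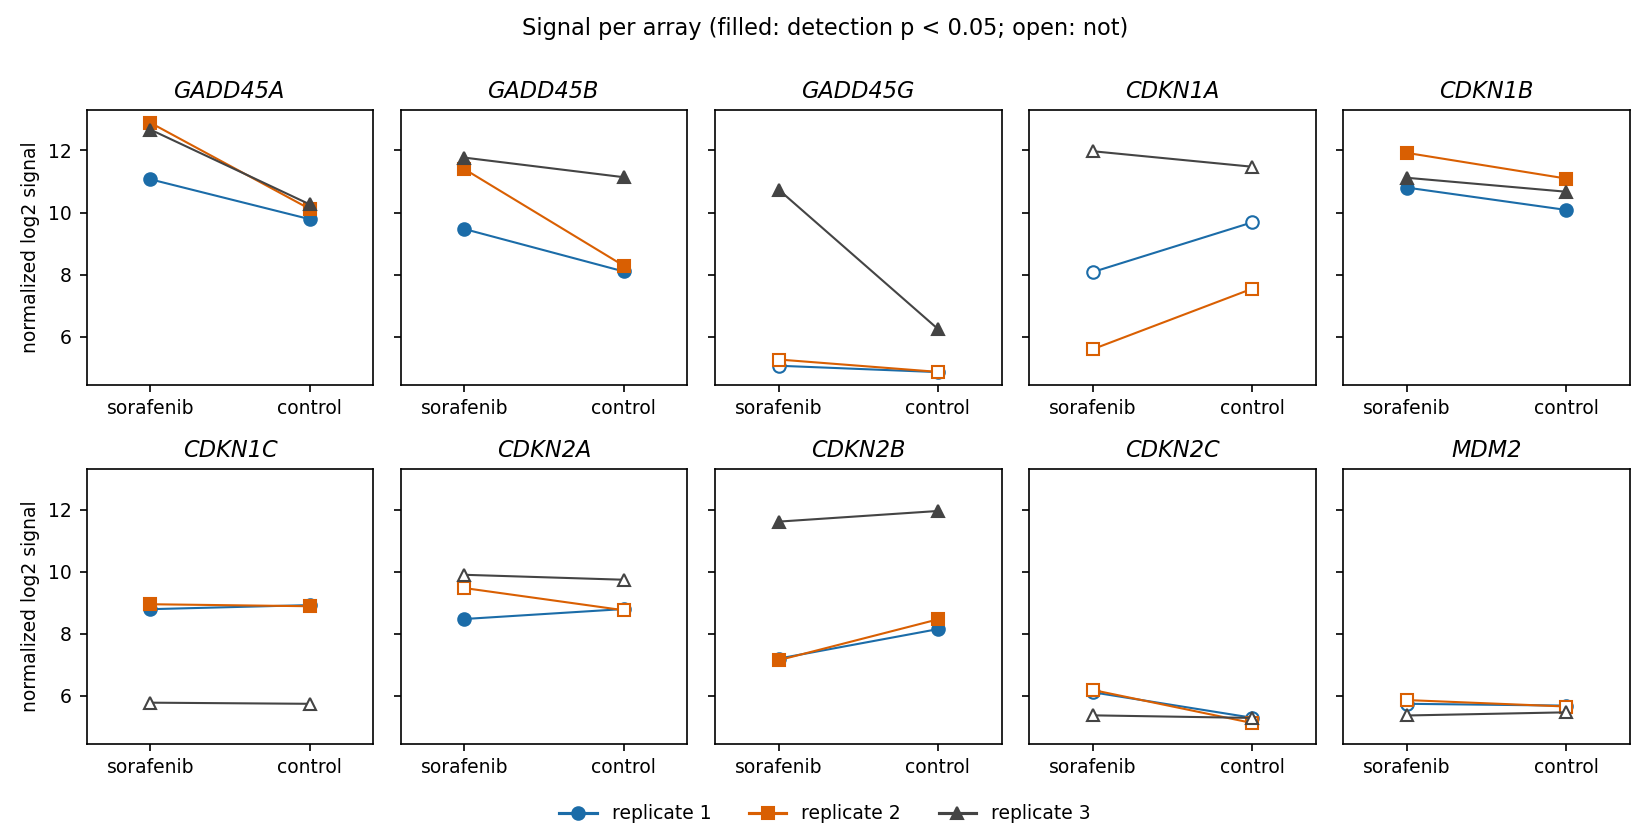
Normalized log2 signal (y axis) of the 10 genes on the sorafenib (left) and control (right) array of each replicate number, joined by a line. Filled points had a detection p under 0.05 and open points did not. GADD45A lines all slope down to the right, and both arrays numbered 3 lie far from the other 4 for CDKN1A, CDKN1C and CDKN2B.

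Among the GADD45 genes, GADD45A gave the clearest difference. Its log2 signal was 11.07, 12.89 and 12.67 on sorafenib arrays 1, 2 and 3, against 9.79, 10.12 and 10.26 on control arrays 1, 2 and 3. Every sorafenib array lay above every control array, as for 3.22% of tested symbols. The pair differences were 1.28, 2.77 and 2.41, which are 2.44-fold, 6.84-fold and 5.31-fold. GADD45A was thus at least 2-fold higher in each pair, as were 28 of 14641 tested symbols (0.191%). The mean difference was 2.16 ± 0.78 (SD, n = 3 pairs), or 4.45-fold, the 6th highest among the tested symbols. GADD45A rose in the paired trended fit in limma (adjusted p = 0.0335), and not in the group fit (adjusted p = 1, unadjusted p = 0.0059) or the plain blocked fit (adjusted p = 0.101, unadjusted p = 2.08e-04). The paired trended fit gave an adjusted p of 0.0016 without pair 1, 0.0985 without pair 2 and 4.72e-04 without pair 3. Estimating the background from all symbols gave 0.129, with a mean difference of 2.55. GADD45A passed in 5 of 28 alternatives and was higher with sorafenib in all 28.

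GADD45B, the family member best known as an NF-kB and TGF-beta response gene, had log2 signals of 9.47, 11.40 and 11.77 with sorafenib, against 8.10, 8.29 and 11.14 in controls. Control array 3 lay far above the other controls and above sorafenib array 1, so the groups overlapped. The pair differences were 1.37, 3.11 and 0.63, with a mean of 1.70 ± 1.27 (SD, n = 3 pairs). GADD45B ranked 16th by that mean but 160th by its smallest pair difference. It did not pass in limma's paired trended fit over all 3 pairs (adjusted p = 0.0768). Without the arrays numbered 3, GADD45B passed in limma's plain blocked fit with a difference of 2.24 (adjusted p = 0.0282), as did GADD45A with 2.03 (adjusted p = 0.0282) and CDKN2B with −1.13 (adjusted p = 0.0395). That fit on 4 arrays called 320 of 14641 symbols (2.19%). Without pair 2 the GADD45B difference was 1.00, with an adjusted p of 0.273 in limma's plain blocked fit, and without pair 1 it was 1.87 (adjusted p = 0.320). Without control array 3 alone it was 2.68.

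GADD45G, the third member, was not above background on arrays 1 and 2 of either group. Its signal was 104, 141 and 1795 intensity units on sorafenib arrays 1, 2 and 3, against 96.0, 97.6 and 202 on control arrays 1, 2 and 3. Only both arrays numbered 3 were detected, with a detection p of 0 for sorafenib and 0.0143 for control. The pair 3 difference was 4.49, the largest pair difference of any member. Its size depends on the background correction: it was 3.26 without correction, and 1.48 if all symbols served to estimate the background. As 1 pair carries it, GADD45G has no replicate check.

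Promoter sequences from RefSeq (GRCh38.p14, 250 bases before to 50 after the gene start) were at hand for 8 of the 10 genes. None was at hand for GADD45A or CDKN1C, so the promoters of these genes were not searched. The promoters of GADD45B, GADD45G and CDKN1B are shown. GADD45B and CDKN1B were higher with sorafenib in all 3 pairs, while GADD45G was detected in pair 3 alone. Those of CDKN2C, which lay near background, are not shown. Capitals mark motifs found on either strand, placed by their first printed base relative to the gene start: the ATF4 composite element TGATGNAA, the CCAAT box CCAAT, the GC box GGGCGG and the TATA box TATAAA.
GADD45B, chr19:2475877-2476176, plus strand: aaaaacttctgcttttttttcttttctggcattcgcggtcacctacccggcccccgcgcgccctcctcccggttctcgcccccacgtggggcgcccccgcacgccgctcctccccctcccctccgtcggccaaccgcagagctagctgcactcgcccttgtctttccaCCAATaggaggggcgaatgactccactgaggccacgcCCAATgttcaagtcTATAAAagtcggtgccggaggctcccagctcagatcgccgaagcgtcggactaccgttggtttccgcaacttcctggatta
GADD45G, chr9:89604762-89605061, plus strand: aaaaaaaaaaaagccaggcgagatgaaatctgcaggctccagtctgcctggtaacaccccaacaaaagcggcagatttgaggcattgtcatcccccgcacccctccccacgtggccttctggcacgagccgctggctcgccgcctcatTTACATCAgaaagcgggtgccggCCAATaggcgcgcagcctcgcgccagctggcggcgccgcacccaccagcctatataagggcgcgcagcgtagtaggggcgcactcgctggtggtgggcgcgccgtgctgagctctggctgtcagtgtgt
CDKN1B, chr12:12717118-12717417, plus strand: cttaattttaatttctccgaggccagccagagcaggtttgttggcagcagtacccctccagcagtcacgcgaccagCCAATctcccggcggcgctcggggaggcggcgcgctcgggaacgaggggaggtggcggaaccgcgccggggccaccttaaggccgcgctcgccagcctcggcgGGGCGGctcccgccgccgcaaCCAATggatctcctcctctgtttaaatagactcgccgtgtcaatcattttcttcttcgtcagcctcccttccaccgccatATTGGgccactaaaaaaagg
The GADD45B window holds CCAAT boxes at −82 and −45 and a TATA box at −31. The GADD45G window holds a CCAAT box at −79 and an ATF4 composite element at −102, read on the minus strand. Of the 14 promoter windows of the 8 genes no other has that element, which 3.63% of 34796 promoter windows hold. The CDKN1B window has CCAAT matches at −174, −50 and 30, and a GC box at −71. CCAAT is found in 34.6% of all windows, the GC box in 44.9% and the TATA box in 11.6%. The cyclic AMP response element TGACGTCA, the octamer ATTTGCAT and an NF-kB site were searched too and are not in these 3 windows. They are in 1.84%, 1.76% and 0.56% of all windows. The searched motifs did not overlap one another in them. These matches are descriptions of sequence and were not measured as binding.

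**Figure D2:**
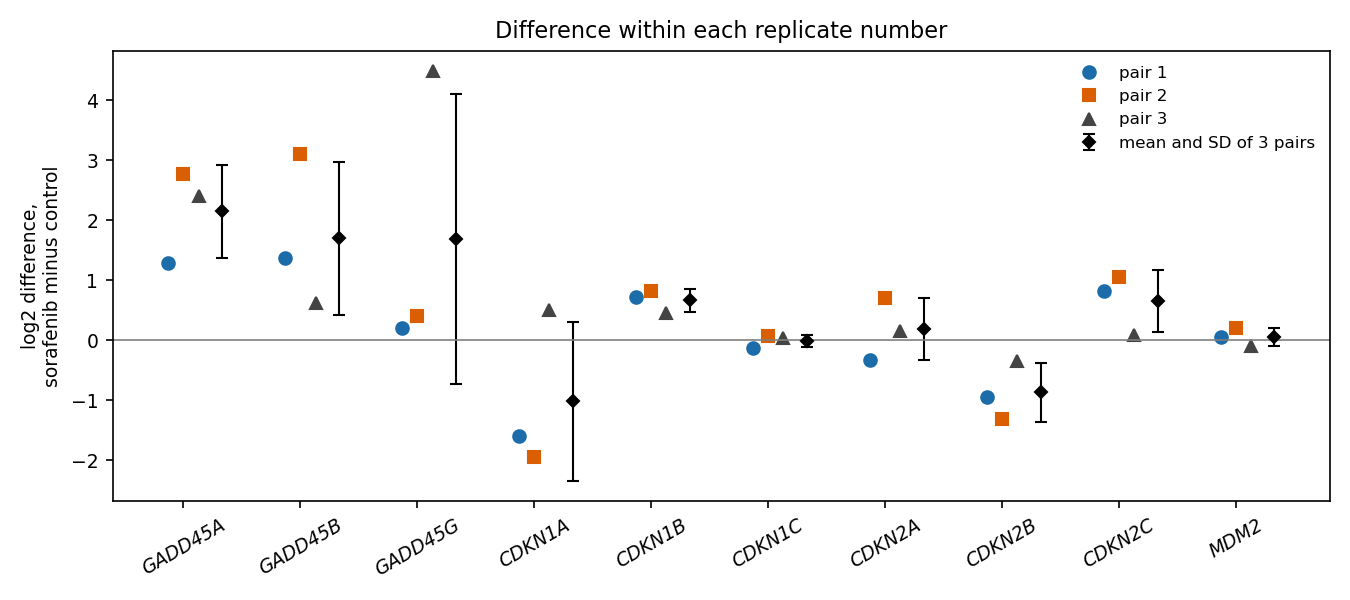
Log2 difference of sorafenib minus control (y axis) in pairs 1, 2 and 3 for each of the 10 genes, with the mean and SD of the 3 pairs as a black diamond and bar. GADD45A is above 1 in every pair, CDKN1B lies between 0.45 and 0.83, and the long bars of GADD45G and CDKN1A come from pair 3.

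Among the CIP/KIP inhibitors, CDKN1B (p27) had the most even difference. Its log2 signal was 10.80, 11.92 and 11.12 on sorafenib arrays 1, 2 and 3, against 10.08, 11.10 and 10.67 on control arrays 1, 2 and 3. The groups overlapped because control array 2 lay above sorafenib array 1, but sorafenib was the higher array of each pair. The pair differences of 0.72, 0.83 and 0.45 gave a mean of 0.67 ± 0.19 (SD, n = 3 pairs), or 1.59-fold. CDKN1B did not pass in limma's paired trended fit over all pairs (adjusted p = 0.0784). It did so only without the arrays numbered 3 (difference 0.77, adjusted p = 0.0102), where 1375 of 14641 symbols passed. Its adjusted p in that fit was 0.266 without pair 1 and 0.264 without pair 2. Leaving out single arrays lowered the difference to 0.34 (without sorafenib array 2) and 0.40 (without control array 1). Being higher in all 3 pairs is common: it held for 21.5% of tested symbols, and for 3 of the 5 tested members.

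CDKN1A (p21), a broad inhibitor of cyclin and kinase complexes, had no common direction over the pairs, unlike GADD45A. Its signal was 408, 163 and 4041 intensity units on sorafenib arrays 1, 2 and 3, against 1024, 310 and 2974 on control arrays 1, 2 and 3. On the log2 scale the pair differences were −1.60, −1.95 and 0.50, with a mean of −1.02 ± 1.32 (SD, n = 3 pairs). The mean difference was 0.46 without sorafenib array 2 and −2.73 without sorafenib array 3. Sorafenib was thus the lower array in pairs 1 and 2 and the higher in pair 3, a pattern seen in 10.4% of 15485 symbols kept by a signal filter. Each pair kept its sign without background correction, with an offset of 50, with median scaling, and when the background came from all symbols, where pair 2 was −0.11. With that last background the mean difference changed sign, to 0.04. The signal of sorafenib array 2 was below the limit of detection of its array.

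CDKN1A was left untested because its detection p was 0.0769 to 0.464 on every array, although 5 of its 6 signals were above the limit of detection of their array, 140 to 187 intensity units, which is the dimmest detected single-probe signal. The detection p-values show how this arises. For CDKN1A all 6 equal the chance that 2 uniform values sum to a whole multiple of 1/770 or less, as when the p-values of 2 probes are added. The sums so recovered were 0.964, 0.855 and 0.727 with sorafenib and 0.392, 0.844 and 0.782 in controls. Such sums need at least 1 probe near background, also on the arrays numbered 3, where the deposited signal was bright. When symbols were chosen by signal in place of the detection p, limma's paired trended fit gave CDKN1A an adjusted p of 0.208 and GADD45A 0.0275, and called 208 symbols (1.34%).

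CDKN1C (p57) had log2 signals of 8.79, 8.95 and 5.78 with sorafenib, against 8.92, 8.88 and 5.74 in controls. Neither array numbered 3 was detected, so pair 3 gives no fold. Its mean difference was −0.01 ± 0.11 (SD, n = 3 pairs), the smallest of the 10, and no fit called it; the paired trended fit in limma gave an adjusted p of 0.981.

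Among the INK4 inhibitors, CDKN2B (p15) was lower with sorafenib in all 3 pairs, as were 22.2% of tested symbols. Its log2 signal was 7.20, 7.14 and 11.61 on sorafenib arrays 1, 2 and 3, against 8.15, 8.46 and 11.95 on control arrays 1, 2 and 3. Within arrays 1 and 2 both sorafenib values lay below both control values, while the arrays numbered 3 were 4.04 above the mean of the other 4. The pair differences were −0.95, −1.32 and −0.34, with a mean of −0.87 ± 0.49 (SD, n = 3 pairs), or 0.547-fold. CDKN2B did not pass in limma's paired trended fit (adjusted p = 0.0914). The difference was −2.35 without sorafenib array 3 and 0.35 without control array 3. When the background came from all symbols, its pair differences were −0.10, −0.16 and −0.47. The detection p-values of CDKN2B matched 3 probes, with sums of 0.477, 0.349 and 0.038 for sorafenib and 0.266, 0.248 and 0.097 for controls. On arrays 1 and 2 such sums do not show that any 1 probe was under 0.05.

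CDKN2A, which encodes p16 and the MDM2 inhibitor ARF from different reading frames, had a signal of 511, 695 and 1042 with sorafenib, against 600, 544 and 985 in controls. Its 6 detection p-values matched 3 probes with sums of 0.651 to 0.799 for sorafenib and 0.843 to 0.925 for controls, so only sorafenib array 1 passed 0.05. The pair differences of −0.32, 0.71 and 0.16 go both ways. The 2 transcripts of this locus cannot be told apart in a value combined over probes.

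CDKN2C (p18) was near background. Its signal was 160, 191 and 149 on sorafenib arrays 1, 2 and 3, against 119, 128 and 145 on control arrays 1, 2 and 3. Every sorafenib array lay above every control array, but only sorafenib arrays 1 and 2 exceeded the limit of detection of their array, at 140 and 184, and no fold is given. MDM2 was at 138, 177 and 149 intensity units with sorafenib, against 139, 169 and 158 in controls, and was detected on no array. Its pair differences were 0.06, 0.21 and −0.10. Such dim signals give no lower bound on the RNA.

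For several of the 10 genes the mean level on the arrays numbered 3 differed widely from that on the other 4. For GADD45B, sorafenib array 2 (11.40) lay between the arrays numbered 3 (11.77 with sorafenib and 11.14 in control). The share of all symbols with such gaps was not counted. The mean of the arrays numbered 3 minus that of the other 4 was 4.04 for CDKN2B, 4.00 for CDKN1A and 2.14 for GADD45B on the log2 scale. GADD45G was detected on both arrays numbered 3 alone and CDKN1C on all arrays but those, so their gaps have no exact size. For GADD45A it was 0.50 and for CDKN1B −0.08. The hepatocyte markers given above differed between these same arrays; their part in these levels was not tested. The median difference over the 5 tested members was 0.67, with pair medians of 0.72, 0.83 and 0.45, against −4.17e-04 over all tested symbols.

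**Figure D3:**
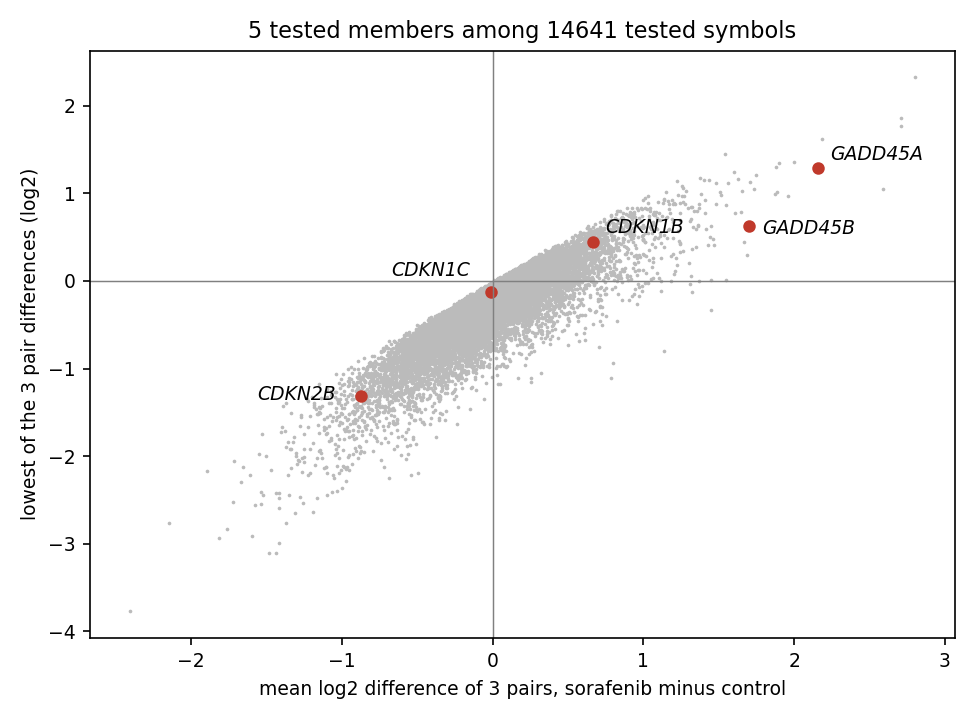
Each grey point is 1 of 14641 tested symbols, placed by its mean log2 difference over 3 pairs (x axis) and its lowest pair difference (y axis), and the 5 tested members are in red. GADD45A lies at the upper right edge at 2.16 and 1.28, GADD45B has a similar mean with a lowest pair of 0.63, and CDKN1C lies at the centre.

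The profiles most like each tested member were found by the Euclidean distance between log2 values over the 6 arrays, each centred on its own mean. For GADD45A the nearest were PPP1R15A (distance 1.00), GDF15 (1.02) and TCP11L2 (1.07). PPP1R15A, also called GADD34, directs a phosphatase to eIF2alpha, and its pair differences were 0.77, 2.49 and 1.57. For GADD45B the nearest were the p38 and JNK phosphatase DUSP10 (0.72), the transcription factor IRF1 (0.82) and the metallothionein MT1X (0.86). In pair 3, DUSP10 differed by 0.18 and MT1X by −0.04, against 0.63 for GADD45B. GDF15, a secreted stress cytokine, rose by 1.96 ± 0.89 (SD, n = 3 pairs) in limma's paired trended fit (adjusted p = 0.0382). As it was picked for likeness to GADD45A on these same arrays, that p-value is not separate support. IRF1 differed by 1.36, 3.06 and 1.58 in the 3 pairs. CDKN1B was nearest to MARVELD2 (0.29), CDKN2B to the drug exporter ABCB1 (0.56) and CDKN1C to LRP1B (0.29).

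The genes around these members were read from 6 lists. Over all tested symbols, 0.977% passed in limma's paired trended fit, 21.5% were higher in all 3 pairs and 22.2% were lower in all 3. These shares are the background for the counts of every list below. Of the 9 tested cyclins and kinases that the inhibitors bind, 0 passed in limma's paired trended fit, with 1 higher and 2 lower throughout the 3 pairs and a median of −0.18. Cyclin E1 (CCNE1) had a mean difference of −0.93 and cyclin D1 (CCND1) one of −0.64, while cyclin A2 (CCNA2) was at 0.66. Of 10 tested genes of the RB and E2F family 0 passed, with 1 higher and 4 lower throughout and a median of −0.38. The E2F partner TFDP1 was the most even of them, with pair differences of −0.81, −0.72 and −0.69 (adjusted p = 0.0511 in limma's paired trended fit). E2F2 was at −0.76, E2F3 at −0.62 and E2F5 at 0.48.

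Among 5 tested CDK phosphatases and related genes 0 passed; the median was 0.37, and CDC25A, which activates CDK2, was lower in all pairs (−0.61) while CDC25C (0.56) and CDKN3 (0.54) were higher. Of 9 tested genes that turn over p21 and p27, 0 passed, with 1 higher and 4 lower throughout and a median of −0.16. SKP1, a subunit of the SCF ubiquitin ligase that degrades p27, had a mean difference of −0.64, RBX1 one of −0.44 and CUL4A one of −0.43, while the mitotic activator CDC20 was at 0.82. Of 7 tested GADD45 partners and stress kinases 0 passed, with a median of 0.05. The p38 kinase MAPK14 (0.49) and its activator MAP2K6 (0.33) were higher in all pairs and the JNK activator MAP2K4 was lower (−0.33).

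Of 16 tested transcription factors known to act on GADD45 genes or CDKN1A, 1 rose and 0 fell, with 5 higher and 1 lower throughout the pairs and a median of 0.15. DDIT3 (CHOP), a factor of the integrated stress response, rose by 2.71 ± 0.83 (adjusted p = 0.0201 in limma's paired trended fit). ATF4, which induces DDIT3, had pair differences of 0.24, 0.34 and 0.93. KLF6, an activator of CDKN1A, was at 0.73, 2.30 and 0.70. EGR1, an immediate early factor downstream of ERK, was at −2.21, −1.35 and −0.50, and every sorafenib array lay below every control array, as for 3.25% of tested symbols. None of ATF4, KLF6 and EGR1 passed.

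**Figure D4:**
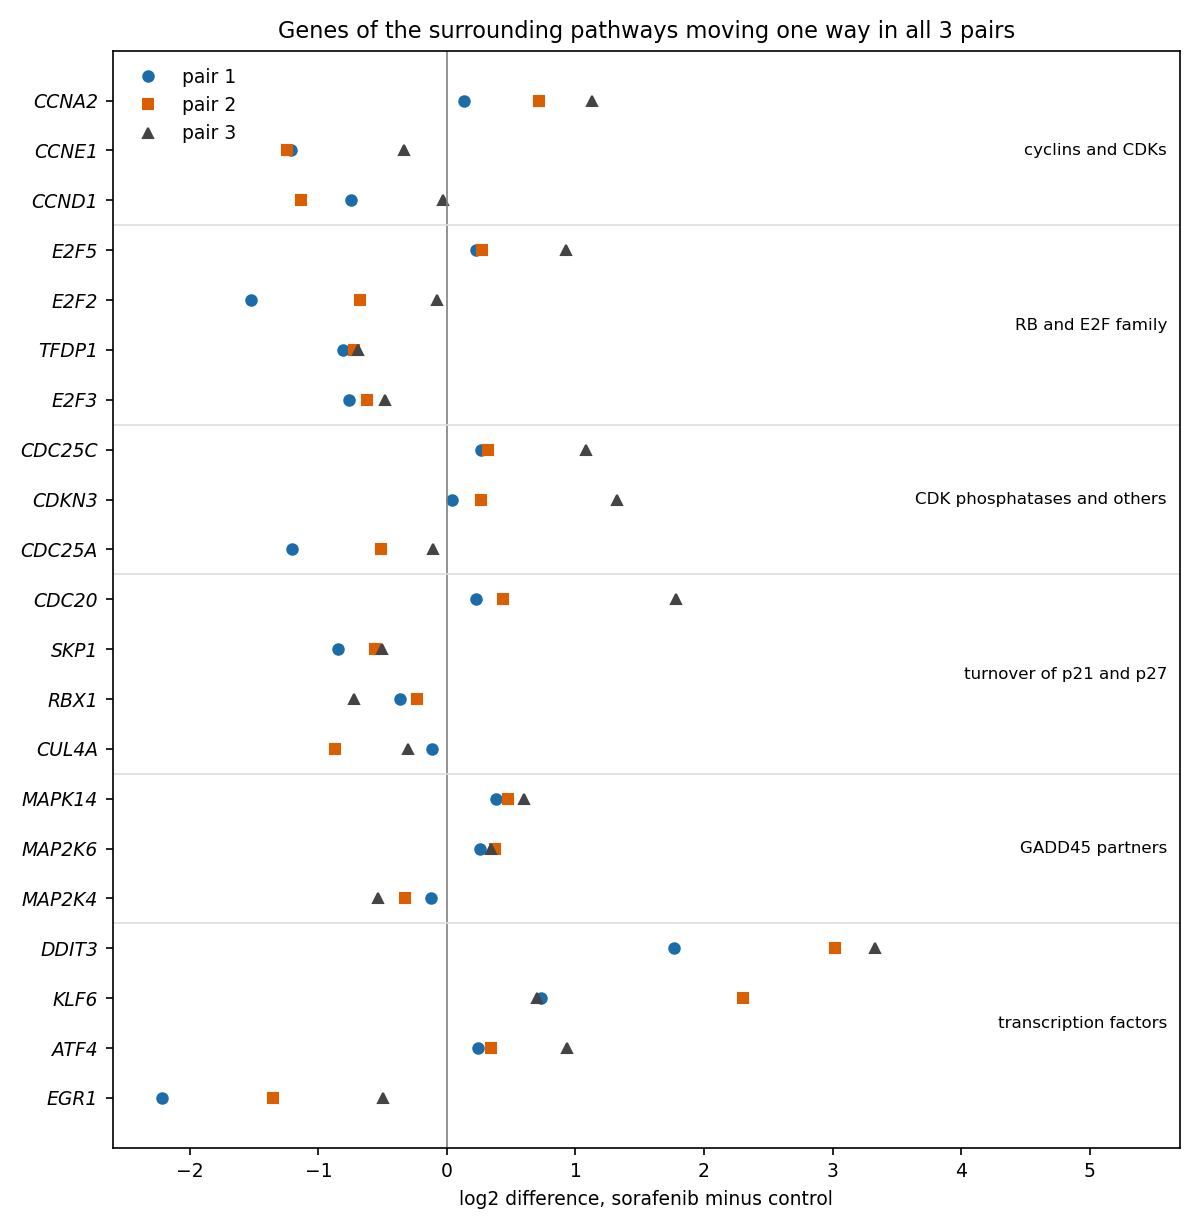
Log2 differences of sorafenib minus control (x axis) in pairs 1, 2 and 3 for the genes of each list that lay on the same side of 0 in all 3 pairs, at most 3 per direction, with lists set apart by grey lines. DDIT3 is farthest right, with a mean of 2.71, and EGR1 is farthest left, with a mean of −1.36.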

How the data were processed

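The authors deposited signal intensities, per the file headers not normalized, with a detection p-value per symbol and array, in 1 table per group. The tables held 1 value per symbol, and how probes had been combined is not given in the sources used here. A deposited table of log2 values was not used, since its sorafenib columns are mostly empty. For 27247 symbols every detection p was a multiple of 1/770 within 0.001, as a single probe gives. Background was corrected by limma's neqc method (offset 16) with those symbols, followed by quantile normalization and log2. A symbol was tested, with limma 3.58.1 in R 4.3.3, if detected on at least 3 of 6 arrays. The signal filter, added after the values were seen, asks for a signal above the limit of detection on at least 3 arrays. Pairing by number was accepted because deviations from the group mean correlated at 0.904, 0.791 and 0.926 between arrays of the same number. Between arrays 1 and 2 of unlike groups the correlations were 0.288 and 0.314. Between an array numbered 3 and an array of another number they were −0.800 to −0.632. These values are partly set by the arrays numbered 3, which stood apart in both groups. The labels do not say what a number shares or whether replicates were separate cultures. The p-values of the group fit therefore measure the spread between these arrays. Those of the blocked fits measure the spread of these pair differences. An exact permutation test could not go below 0.1 for 3 against 3 arrays, or 0.25 for 3 pairs. The fits were tested on simulated data. These were drawn from the blocked fit with normal noise, so they cannot show whether pairing by number suits these arrays.

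The members, the lists and the paired trended fit were chosen with earlier results of these data known. Named were every member, up to 3 tested genes per list and direction with the largest mean difference among those alike in all 3 pairs, and the nearest profiles. CCND3, ATF3 and PCNA were added after their values were seen. Results of 2 further lists are not reported here. Gene symbols are those of the files.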

Additional observations from a re-analysis of the deposited data

How the results depend on the processing

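GADD45A, GADD45B and CDKN1B were higher with sorafenib under all 28 alternatives. So was CDKN2C, but it was detected on no array, and its difference was only 0.027 when the background came from all symbols. The fit on the group alone and the plain replicate block each called 0 symbols in limma, with 310 and 2776 at an unadjusted p under 0.05. The plain block changed no call on all 6 arrays. The replicate block with trend and robust estimation called 143 of 14641 symbols (0.977%) and 1 of 5 tested members. With the signal filter it called 208 of 15485 symbols (1.34%) and 1 of 7 members. When all symbols served to estimate the background, the block with trend and robust estimation called 0 symbols and 0 members. The median difference of the members tested was 0.67, and it was 0.42 without a detection filter, 1.18 for members detected on all 6 arrays and 0.18 with the signal filter, with or without the block; these medians cover different sets of members. When arrays were left out, the symbols called ranged from 0 to 1375, the members called from 0 to 4 and the median from 0.34 to 1.02. Without pair 3 the plain block called 320 of 14641 symbols (2.19%) and 3 of 5 tested members. The block with trend and robust estimation was read over 14641 symbols and 5 tested members. It called 58 symbols and 1 member without pair 1, and 1 symbol and 0 members without pair 2. Without pair 3 it called 1375 of 14641 symbols and 4 of the 5 members. Leaving out arrays also turned the direction of CDKN1C, which ranged from −1.06 to 1.02 (0.53 and 0.51 without control array 1 or 2, 0.051 without pair 1), and of CDKN2B, from −2.35 to 0.35 (0.35 without control array 3). It also turned 4 members that were not tested: CDKN1A, −2.73 to 0.46 (0.46 without sorafenib array 2), GADD45G, −0.16 to 2.68 (−0.16 without sorafenib array 3), CDKN2A, −0.12 to 0.59, and MDM2, −0.048 to 0.20. Removing 1 array leaves its partner unmatched. CDKN1A also turned with all 6 arrays kept: its mean difference was 0.04 when the background came from all symbols.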

Other observations

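Some genes around the members were bright but left out by the detection filter, as CDKN1A was; in all, 1079 untested symbols passed the signal filter. ATF3, a stress factor known to act on GADD45A, had log2 signals of 8.73, 10.28 and 10.37 with sorafenib, against 7.87, 7.66 and 7.17 in controls, with no overlap. Its mean difference was 2.22 ± 1.22 (SD, n = 3 pairs), and with the signal filter it passed in limma's paired trended fit (adjusted p = 0.0409). PCNA, the replication clamp that binds p21 and GADD45 proteins, had log2 signals of 8.49, 9.93 and 9.43 with sorafenib, against 10.11, 11.59 and 9.98 in controls. Every sorafenib array was below every control array. PCNA passed in the same fit with a mean difference of −1.28 ± 0.63 (adjusted p = 0.0461). That fit called 208 of 15485 symbols (1.34%). ATF3 and PCNA were chosen after their values were seen.

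Cyclin D3 (CCND3) shared the signs of CDKN1A, with pair differences of −1.86, −2.02 and 0.49. It was chosen after its values were seen.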
